A study of Homo sapiens with 24 samples.

Results

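In HCT116 cells, 195 autosomal genes that were silent in the WT line were transcribed after combined loss of UHRF1 and DNMT1, called the double depletion here. A gene was counted among them when it lay on chromosomes 1 to 22, had at most 3 counts in each of the 6 WT libraries, and had at least 20 counts in each of the 3 libraries of UHRF1-AID/DNMT1-AID cells after 4 days of auxin. The count tables list 58735 genes. Of these, 55746 lie on autosomes and 38574 autosomal genes stayed within the WT limit, so the 195 are 0.506% of the autosomal genes silent in WT. The reverse pattern, at least 20 counts in every WT library and at most 3 in every UHRF1-AID/DNMT1-AID day 4 library, was met by 0 autosomal genes. Counts of WT cells and of UHRF1-AID/DNMT1-AID cells at day 4 chose these genes, so levels in those libraries are a description and carry no test. Levels in the single UHRF1-AID and DNMT1-AID lines, and in all degron lines at day 0, were not used in the choice.

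DNA methylation at CpG dinucleotides is copied after each round of replication. UHRF1 recognises hemimethylated DNA behind the replication fork and promotes the recruitment of DNMT1, the methyltransferase that restores the mark on the new strand. Methylated CpG-rich promoters are generally not transcribed, and this layer of silencing is best known for germline genes, imprinted genes and, in tumours, for genes that were active in the normal tissue. The question asked of these genes was which of them also respond to the loss of UHRF1 or DNMT1 alone, and which are already transcribed before auxin is given.

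The HCT116 line comes from a human colorectal carcinoma, and the derivative used carries OsTIR1, a plant ubiquitin ligase subunit, under a doxycycline-inducible promoter. In UHRF1-AID cells the auxin-inducible degron and the fluorescent protein mClover are fused to the C-terminus of endogenous UHRF1, in DNMT1-AID cells the degron and a red fluorescent protein are fused to the N-terminus of endogenous DNMT1, and UHRF1-AID/DNMT1-AID cells carry both tags. Poly(A) RNA was sequenced at day 0, without auxin, and at day 4, after 4 days in 500 µM auxin and doxycycline that followed a day in doxycycline and auxinole, an auxin antagonist. WT cells, which hold OsTIR1 and no degron, went through the same schedule, and each of the 8 groups of line and day has 3 libraries. Per the study's methods, biological replicates of the tagged lines came from 3 different clones. The origin of the WT replicates is not given in the sources used here, and their spread may be technical.

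Gene counts summed to 15824804 to 25073821 per library. Per the headers of the count tables, the 12 day 0 libraries were aligned in 1 folder together with UHRF1-AID day 4, and the other 9 day 4 libraries in another, which are also the only ones with spike-in counts. Comparisons of UHRF1-AID day 4 with day 0 and comparisons among day 0 lines therefore lie within 1 folder, whereas DNMT1-AID day 4 against day 0 and UHRF1-AID against DNMT1-AID at day 4 cross them, and there folder and condition cannot be told apart. The epithelial markers EPCAM, KRT8, KRT18, KRT19 and CDH1 were abundant in every group, with EPCAM means of 384 to 552 CPM (counts divided by the scaled library size), while the intestinal markers VIL1, CDH17 and LGALS4 stayed under 1 CPM in every group. The DNMT1 and UHRF1 transcripts give no check of depletion, since the tag acts on the protein. Replicate 3 of UHRF1-AID/DNMT1-AID day 0 stood apart for these genes, with 895 counts on them against 257 and 337 in replicates 1 and 2.

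Promoters of 6 of the genes show the range of CpG content among them. UCHL1, SOHLH1 and NSG1 have many CpG dinucleotides before their start, CKM has few, and HCLS1 and COL6A3 have fewest of the 6. All 6 were called higher in UHRF1-AID cells at day 4 than at day 0, as were 95.9% of the whole group and 13.1% of all genes tested. Each line gives the 250 bases before the RefSeq start, 5′ to 3′ on the strand of the gene, with every CpG in capitals. In build GRCh38.p14 the stretches are chr4:41256678-41256927 on the plus strand with 20 CpG for UCHL1, chr9:135699482-135699731 on the minus strand with 19 CpG for SOHLH1, and chr4:4386852-4387101 on the plus strand with 35 CpG for NSG1. For CKM it is chr19:45322876-45323125 on the minus strand with 5 CpG, for HCLS1 chr3:121660904-121661153 on the minus strand with 2 CpG, and for COL6A3 chr2:237414165-237414414 on the minus strand with 3 CpG.
UCHL1: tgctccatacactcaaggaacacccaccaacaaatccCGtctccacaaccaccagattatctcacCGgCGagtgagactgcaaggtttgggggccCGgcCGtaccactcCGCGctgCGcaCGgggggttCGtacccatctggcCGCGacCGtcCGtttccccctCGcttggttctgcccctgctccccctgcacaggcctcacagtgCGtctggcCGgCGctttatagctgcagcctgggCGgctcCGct
SOHLH1: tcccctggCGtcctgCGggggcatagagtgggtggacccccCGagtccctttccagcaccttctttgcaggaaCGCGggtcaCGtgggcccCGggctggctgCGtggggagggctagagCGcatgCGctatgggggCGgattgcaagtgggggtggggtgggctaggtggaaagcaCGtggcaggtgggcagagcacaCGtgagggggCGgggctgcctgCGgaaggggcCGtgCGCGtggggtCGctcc
NSG1: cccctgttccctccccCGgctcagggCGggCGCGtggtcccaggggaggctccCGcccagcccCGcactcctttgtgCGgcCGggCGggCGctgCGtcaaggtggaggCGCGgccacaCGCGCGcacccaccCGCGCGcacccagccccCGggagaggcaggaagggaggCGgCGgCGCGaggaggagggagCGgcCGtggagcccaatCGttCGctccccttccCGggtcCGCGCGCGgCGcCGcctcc
CKM: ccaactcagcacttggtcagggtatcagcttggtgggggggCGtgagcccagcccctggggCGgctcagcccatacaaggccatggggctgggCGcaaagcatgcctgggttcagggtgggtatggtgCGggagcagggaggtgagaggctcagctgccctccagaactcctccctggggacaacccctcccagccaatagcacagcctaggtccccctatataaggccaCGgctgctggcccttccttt
HCLS1: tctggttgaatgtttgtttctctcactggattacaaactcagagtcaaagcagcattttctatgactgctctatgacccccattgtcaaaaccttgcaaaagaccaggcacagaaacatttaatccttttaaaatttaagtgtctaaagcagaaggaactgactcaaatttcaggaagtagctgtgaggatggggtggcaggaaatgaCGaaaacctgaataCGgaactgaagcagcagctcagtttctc
COL6A3: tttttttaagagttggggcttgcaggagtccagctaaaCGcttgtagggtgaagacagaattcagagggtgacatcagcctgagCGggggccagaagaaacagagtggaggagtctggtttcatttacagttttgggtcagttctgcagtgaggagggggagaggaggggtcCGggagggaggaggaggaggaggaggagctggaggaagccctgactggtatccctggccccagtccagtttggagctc

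Over the whole group, promoters were intermediate in CpG content between all autosomal genes tested and the other autosomal genes silent in WT. In a window from 250 bases before to 50 bases after the start of the canonical transcript, which could be read for 194 of the 195 genes, the median was 17 CpG (quartiles 8 and 29, range 0 to 49). All autosomal genes tested had a median of 26 CpG, and the other autosomal genes silent in WT a median of 4. A window was called CpG-rich when its ratio of observed to expected CpG was over 0.6 and its GC content over 50%. By that definition 96 of the windows (49.5%) were CpG-rich, against 77.4% over all autosomal genes tested and 12% over the other silent genes. The position between both backgrounds held within protein-coding genes, where 52.4% of the switched-on genes, 83% of the tested genes and 29.9% of the other silent genes had CpG-rich windows. Among the 23 long noncoding RNAs of the group, 6 windows (26.1%) were CpG-rich. Of short motifs searched on both strands, the GC box GGGCGG was in 57.7% of the windows, against 70% in all autosomal genes tested and 14.9% in the other silent genes. The TATA box TATAAA was in 12.4%, 6.35% and 21%, and the E-box CACGTG in 11.9%, 9.53% and 4.15%. CCGGAAG, a core of ETS factor sites, was in 6.7%, 17.3% and 2.73%, TGACGT, the core of CREB and ATF sites, in 6.7%, 10.5% and 3.72%, TCCCGC, found in E2F sites, in 34%, 41.7% and 9.25%, and GCATGCG, a core of NRF1 sites, in 2.58%, 6.13% and 1.49%. The shares of GC box, TATA box, ETS, CREB, E2F and NRF1 motifs lay between those of both backgrounds, while the E-box share lay above both.

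At day 4 the group stood higher in every UHRF1-AID library than in any DNMT1-AID library, in lines that the choice did not use. In UHRF1-AID cells 110, 119 and 123 of the genes had at least 20 counts in the 3 libraries, in DNMT1-AID cells 30, 25 and 21. At day 0 the numbers were 2, 4 and 12 in UHRF1-AID/DNMT1-AID cells and 0 in every library of the UHRF1-AID and DNMT1-AID lines. Summed over the group, levels at day 4 were 445, 522 and 488 CPM in UHRF1-AID cells and 107, 113 and 98.7 CPM in DNMT1-AID cells, which did not overlap. UHRF1-AID/DNMT1-AID cells held 1010, 977 and 1010 CPM, by construction above WT, where the sum lay between 3.3 and 4.15 CPM. The choice also favoured their place above the single lines. At day 0 the sum was 3.56 to 5.44 CPM in UHRF1-AID, 6.67 to 8.97 CPM in DNMT1-AID, and 11.3, 14.1 and 38.3 CPM in UHRF1-AID/DNMT1-AID cells. Even in the double depletion the group took only 0.095% to 0.101% of all counts. In bulk RNA, fewer transcribing cells and less RNA per cell cannot be told apart.

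**Figure D1:**
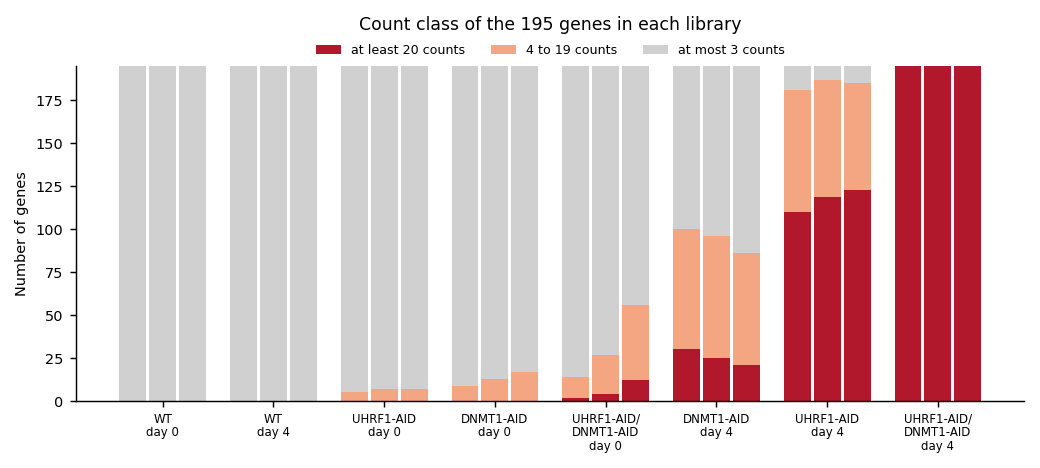
Number of the 195 genes (y axis) with at least 20, 4 to 19, or at most 3 counts in each of the 24 libraries, which are grouped by line and day on the x axis. WT and UHRF1-AID/DNMT1-AID day 4 libraries are fixed by the choice of genes, and between them UHRF1-AID day 4 libraries hold 110 to 123 genes with at least 20 counts and DNMT1-AID day 4 libraries 21 to 30.

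Sorted by group, 89 of the 195 genes had at least 20 counts in each UHRF1-AID day 4 library and 4 had at most 3 in each. In DNMT1-AID cells at day 4, 17 were at 20 or more in each library and 74 at 3 or fewer in each. Genes at 20 or more in every library of both single lines numbered 16. A further 14 were at 20 or more in UHRF1-AID cells and at 3 or fewer in DNMT1-AID cells, and 0 genes showed the opposite. Among the 38379 other autosomal genes silent in WT, 9 (0.0235%) reached 20 counts in each UHRF1-AID day 4 library, against 45.6% of the switched-on genes, and 0 did so in DNMT1-AID cells. By the choice, these other genes had missed 20 counts in at least 1 UHRF1-AID/DNMT1-AID day 4 library. The contrast is therefore a description.

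**Figure D2:**
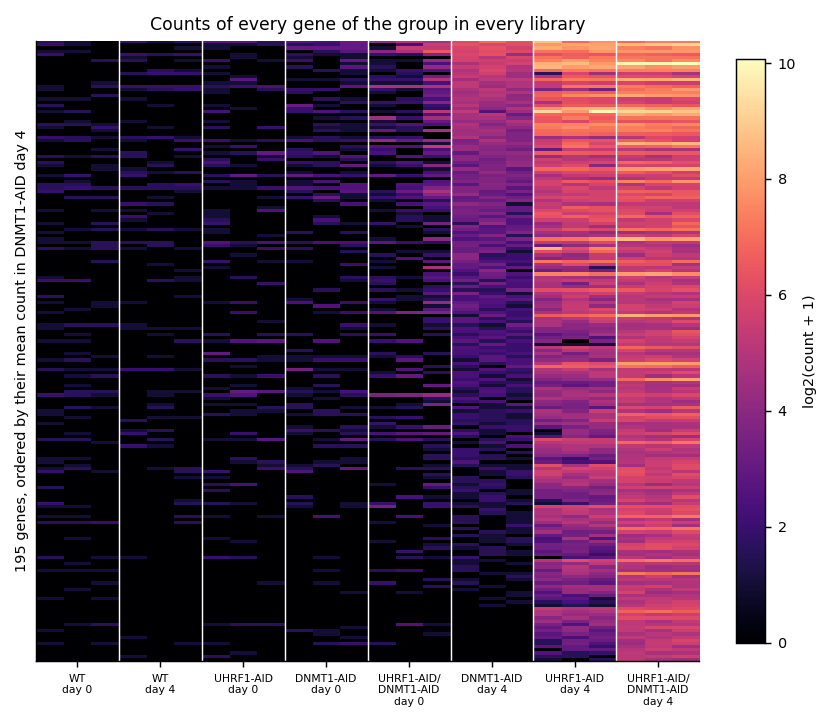
log2(count + 1) of each of the 195 genes (rows, ordered by their mean count in DNMT1-AID day 4 libraries) in each of the 24 libraries (columns, grouped by line and day). Most rows are dark in WT, UHRF1-AID day 0 and DNMT1-AID day 0 libraries and bright in UHRF1-AID day 4 libraries, and UHRF1-AID/DNMT1-AID day 0 replicate 3 is brighter than replicates 1 and 2.

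The genes with the highest levels per length in UHRF1-AID/DNMT1-AID cells came from tissues that have little in common. Levels are given as RPKM, CPM per kilobase of exon, whose median over the group was 1.06 there, against 2.96 over all autosomal genes tested. UCHL1 (ENSG00000154277, chr4:41256413-41268455), a ubiquitin hydrolase abundant in neurons, had 934, 948 and 1072 counts in the 3 libraries and 0 in all 6 WT libraries. Its level was 27.1 ± 1.56 RPKM (SD, n = 3). DKK4, a secreted WNT antagonist, had 561, 551 and 448 counts, or 36.6 ± 5.13 RPKM (SD, n = 3), the highest mean level of the group. CKM (ENSG00000104879, chr19:45306414-45322977), the muscle creatine kinase, had 394, 487 and 567 counts, or 18.3 ± 3.08 RPKM (SD, n = 3). TFF2, a trefoil peptide of gastric mucus, had 251, 287 and 198 counts and 18.6 ± 3.86 RPKM (SD, n = 3). PPP1R14A, an inhibitor of myosin phosphatase in smooth muscle, reached 11.8 ± 0.907 RPKM and POMC, the precursor of ACTH and melanocortins, 10.6 ± 0.481 RPKM (SD, n = 3 each). MAP1LC3A, an autophagy protein of the LC3 family, stood at 9.83 ± 1.04 RPKM and BOK-AS1, an antisense RNA at the BOK gene, at 9.8 ± 1.52 RPKM (SD, n = 3 each). The median coefficient of variation over the group was 18.6% among UHRF1-AID/DNMT1-AID day 4 replicates. It was 32.9% in UHRF1-AID and 54.8% in DNMT1-AID cells at day 4. The choice required at least 20 counts in each UHRF1-AID/DNMT1-AID library, and median levels were 2.92, 1.28 and 0.228 CPM in the same order. These spreads are therefore a description and do not compare how well the lines reproduce.

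Loss of UHRF1 alone raised nearly the whole group. In UHRF1-AID cells 187 of the 195 genes (95.9%) were called higher at day 4 than at day 0 and 0 lower, where 13.1% of all 15699 genes tested were called higher and 9.78% lower. Calls rest on the quasi-likelihood test of edgeR, with Benjamini-Hochberg adjustment, an adjusted p under 0.05 and a change of more than 1 log2 unit. Genes this close to 0 at day 0 could hardly be called lower, and at an unadjusted p under 0.05 the counts were 188 higher and 0 lower. DESeq2 called 183 higher and 0 lower. Every day 4 library lay above every day 0 library for 187 genes, a pattern seen in 30.1% of all genes tested. For 108 genes all UHRF1-AID day 0 libraries were at 0. With such groups set to a floor of 3 counts per library, the median fold over the group was 13.2.

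UCHL1 had 327, 386 and 244 counts in UHRF1-AID day 4 libraries and 0 in each at day 0, which makes it at least 111-fold higher (adjusted p = 7.74e-06, edgeR). TFF2 counts were 173, 181 and 132 against 0, at least 56.1-fold higher, and MAP1LC3A counts 114, 116 and 88 against 0, at least 36.7-fold higher. These genes were among those with no read at day 0 and a clear signal in every day 4 library. The smallest p of the group belonged to CKM, with 238, 294 and 268 counts at day 4 and 1, 1 and 2 at day 0, a log2 change of 7.61 (standard error 0.35, adjusted p = 7.87e-07, edgeR). HCLS1 (ENSG00000180353, chr3:121631399-121660927), a cortactin-like protein of blood cells, had 308, 230 and 290 counts against 1, 0 and 0. Its ratio was 799 with a 95% counting interval of 154 to 34100, and counting intervals and floors cover counting error only. NR5A1, the steroidogenic factor of gonad and adrenal, had 378, 254 and 300 counts against 1, 0 and 0. SOHLH1 (ENSG00000165643, chr9:135693407-135699528), a helix-loop-helix factor of early germ cells, had 216, 348 and 357 counts against 0, 1 and 0. LXN, a carboxypeptidase inhibitor, had 137, 103 and 151 against 0, 1 and 0. In all of these the groups were far apart, although the ratio itself is loosely bounded when day 0 holds so few reads.

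The 8 genes not called after UHRF1 loss were RAB42, GSTM3, RPL39L, HMX1, KCNV2, MEG3, ENSG00000276855 and CLIP3, and they are named because they were left over. GSTM3, a glutathione transferase, had 1, 2 and 1 counts in UHRF1-AID day 4 libraries, 0, 1 and 0 in DNMT1-AID day 4 libraries, and 33, 49 and 57 in UHRF1-AID/DNMT1-AID day 4 libraries. RPL39L, a ribosomal protein paralog expressed in testis, had 1, 1 and 1, then 2, 7 and 3, then 40, 33 and 31 counts. The imprinted noncoding RNA MEG3 had 2, 2 and 0 counts in UHRF1-AID and 0 in DNMT1-AID cells, against 35, 38 and 48. ENSG00000276855, a long noncoding RNA, had 1, 0 and 2 in UHRF1-AID and 0 in DNMT1-AID cells, against 37, 25 and 21. Those 4 are also the genes at 3 or fewer counts in each UHRF1-AID day 4 library, so their transcripts were detected above that level at this depth only in UHRF1-AID/DNMT1-AID cells, with the exception of 1 DNMT1-AID library for RPL39L. RPL39L has near-identical copies elsewhere in the genome, and how reads with several alignments were counted is not given in the sources used here.

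Loss of DNMT1 alone raised a smaller share of the group. In DNMT1-AID cells 88 genes (45.1%) were called higher at day 4 than at day 0 and 0 lower, where 8.54% of all genes tested were called higher and 6.19% lower. At an unadjusted p under 0.05 the counts were 101 and 0, and DESeq2 called 74 and 0. Day 4 lay above day 0 in every library for 102 genes, against 25.6% of all genes. CKM counts were 77, 62 and 71 at day 4 and 2, 3 and 7 at day 0, a log2 change of 4.39 (standard error 0.42, adjusted p = 2.04e-05, edgeR). COL6A3 (ENSG00000163359, chr2:237324003-237414375), a chain of the microfibrillar collagen VI, had 65, 125 and 79 counts against 6, 4 and 8, a log2 change of 4.17 (standard error 0.40). HCLS1 counts were 58, 81 and 53 against 7 in each day 0 library, a log2 change of 3.46 (standard error 0.36). Every day 4 value of these 3 genes was several times the highest at day 0. LXN had 54, 33 and 58 counts against 1, 0 and 1, a ratio of 90.6 (95% counting interval 24.5 to 750). UCHL1 had 26, 43 and 55 counts against 0, 0 and 1. The count of 88 fell to 60 without DNMT1-AID day 4 replicate 1, and the alignment folder differs between the days in this line.

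In the direct comparison at day 4, 125 genes (64.1%) were called higher in UHRF1-AID than in DNMT1-AID cells and 0 lower, where 3.17% of all genes tested were called higher and 2.21% lower. At an unadjusted p under 0.05 the counts were 161 higher and 2 lower, and DESeq2 called 126 higher and 0 lower. Every UHRF1-AID library lay above every DNMT1-AID library for 158 genes, against 18.4% of all genes, and below for 2. The median ratio of mean CPM over the 178 genes with a DNMT1-AID count was 5.49. TFF2 had 173, 181 and 132 counts against 3, 9 and 5, a log2 change of 4.46 (standard error 0.38, adjusted p = 0.000215, edgeR). PPP1R16B, a regulatory subunit of protein phosphatase 1, had 146, 109 and 133 counts against 10, 5 and 4, a log2 change of 3.97 (standard error 0.34). NSG1 (ENSG00000168824, chr4:4348140-4419058), a neuronal endosomal protein, had 132, 143 and 206 against 5, 6 and 11, with 4.06 (standard error 0.35). In each of these 3 genes every UHRF1-AID library lay far above every DNMT1-AID library. DPPA5 and ENSG00000231476 had 0 counts in all DNMT1-AID libraries, and UHRF1-AID cells exceeded them by at least 4.58-fold for DPPA5 and by at least 5.69-fold for ENSG00000231476. Without DNMT1-AID replicate 2 or 3 the count of 125 fell to 78 and 79, and the alignment folder differs between both lines.

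Only 4 genes had a higher mean in DNMT1-AID than in UHRF1-AID cells, RPL39L, ZFP42, GCHFR and SMIM5, and 0 of these differences passed the test. RPL39L and ZFP42 are the 2 genes whose groups did not overlap in that direction once scaled for depth. ZFP42, a zinc finger protein of pluripotent cells, had 27, 37 and 17 counts after DNMT1 loss and 11, 21 and 9 after UHRF1 loss (log2 fold change -1.31, standard error 0.47, adjusted p = 0.0895, edgeR). SMIM5 had 34, 50 and 21 after DNMT1 loss and 2, 59 and 21 after UHRF1 loss, which overlapped. It was the single gene at 20 or more counts in each DNMT1-AID and not in each UHRF1-AID library.

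**Figure D3:**
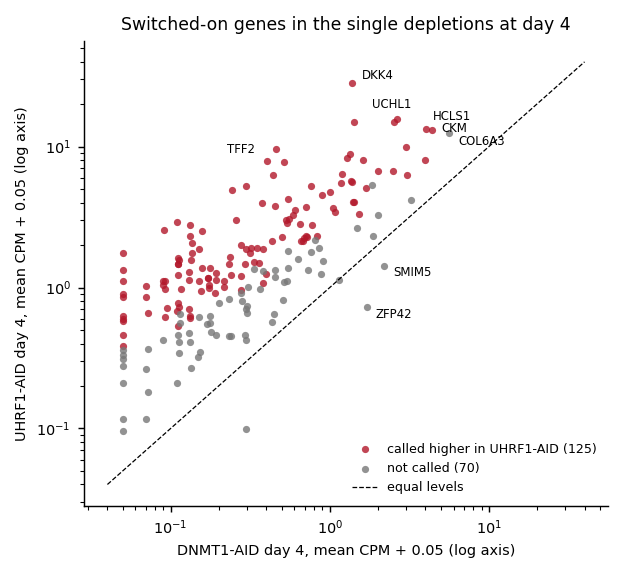
Mean level of each of the 195 genes in DNMT1-AID cells (x axis) and UHRF1-AID cells (y axis) at day 4, n = 3 each, in CPM plus 0.05 on log axes, with the line of equal levels. Red points are the 125 genes called higher in UHRF1-AID cells, genes without a DNMT1-AID count sit at the left edge, and 4 genes lie under the line.

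Whether the day effect itself differed between the single lines was tested as an interaction in a fit of their 12 libraries. There 3 genes (1.54%) were called with a larger rise in UHRF1-AID cells, against 0.242% of all genes tested, and 0 with a larger rise in DNMT1-AID cells, against 0.452%. At an unadjusted p under 0.05 the counts were 52 and 0, and the number called was 27 by DESeq2. For 72 of the 195 genes both day 0 groups were at 0, which leaves the difference of the rises undefined (p over 0.99 for each), so at most 123 genes could have been called by this fit. The 3 genes were HCLS1, with a difference of 5.76 on the log2 scale (standard error 0.70, adjusted p = 0.00658, edgeR), BOK-AS1, with 5.43 (standard error 1.10, adjusted p = 0.0356), and CKM, with 3.16 (standard error 0.66, adjusted p = 0.0395). For HCLS1 and BOK-AS1 the UHRF1-AID day 0 libraries hold 1 count in all, so the size of the difference is loosely set. DNMT1-AID day 0 libraries hold 21, 12 and 12 counts of HCLS1, BOK-AS1 and CKM, against 1, 1 and 4 in UHRF1-AID. The log2 change of UHRF1-AID against DNMT1-AID at day 0 was -4.01, -3.23 and -1.57, none of them called. At day 4 the ratio of mean CPM was 3.35, 4.61 and 2.98. The interaction takes in both the day 0 and the day 4 difference. BOK-AS1 and BOK, its partner on the opposite strand at 37.3 CPM in WT, overlap in exons, and whether counting used strand is not given in the sources used here.

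By the calls of these comparisons, which share libraries, 57 genes were higher in both single lines and also higher in UHRF1-AID than in DNMT1-AID cells. A further 30 rose in both single lines without a called difference between them. A rise called in UHRF1-AID cells and not in DNMT1-AID cells was seen for 100 genes, of which 68 were also called in the direct comparison and 32 were not. RPL39L alone was called only in DNMT1-AID cells, and 7 genes were called in none of them. These combined patterns were counted within the group only. Their shares over all genes tested were not counted, so whether they are particular to the group was not tested. The share of CpG-rich windows was 35.2% among the 88 genes called in DNMT1-AID cells, with a median of 11.5 CpG, and 61.3% among the 106 others with a window, with a median of 22.5 CpG. For the direct comparison it was 49.6% among the 125 called and 49.3% among the 69 others.

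Set beside UHRF1-AID/DNMT1-AID cells at day 4, single depletions mostly gave lower levels, as a description, since the double depletion chose the genes. The ratio of mean CPM to that in the double depletion had a median of 0.443 for UHRF1-AID cells (range 0.0223 to 3.74) and of 0.0729 for DNMT1-AID cells (range 0 to 0.883). In UHRF1-AID cells 7 genes exceeded it, MMP1, ZAP70, COL6A3, HCLS1, TYROBP, TLDC2 and COL14A1, and in DNMT1-AID cells 0 did. MMP1, an interstitial collagenase, had 346, 73 and 186 counts in UHRF1-AID, 54, 42 and 26 in UHRF1-AID/DNMT1-AID and 8, 9 and 3 in DNMT1-AID cells at day 4, a ratio of 3.74 over the double depletion. Its UHRF1-AID libraries all lay above those of both other lines, with a spread of several times among themselves. HCLS1 had 230 to 308 counts in UHRF1-AID and 139 to 214 in UHRF1-AID/DNMT1-AID cells. These did not overlap as raw counts but did once scaled for depth. COL6A3 overlapped as well, with 446, 119 and 224 against 123, 167 and 154. At the other end, 14 genes stood under 0.1 of the double depletion in UHRF1-AID cells, as did 120 in DNMT1-AID cells. DAZL (ENSG00000092345, chr3:16586792-16670306), an RNA-binding protein needed for germ cell development, is an example, with 120, 199 and 283 counts in UHRF1-AID/DNMT1-AID, 13, 17 and 18 in UHRF1-AID and 3, 5 and 1 in DNMT1-AID cells. UHRF1-AID replicate 2 was the highest of its group for 102 genes and replicate 1 the lowest for 92.

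**Figure D4:**
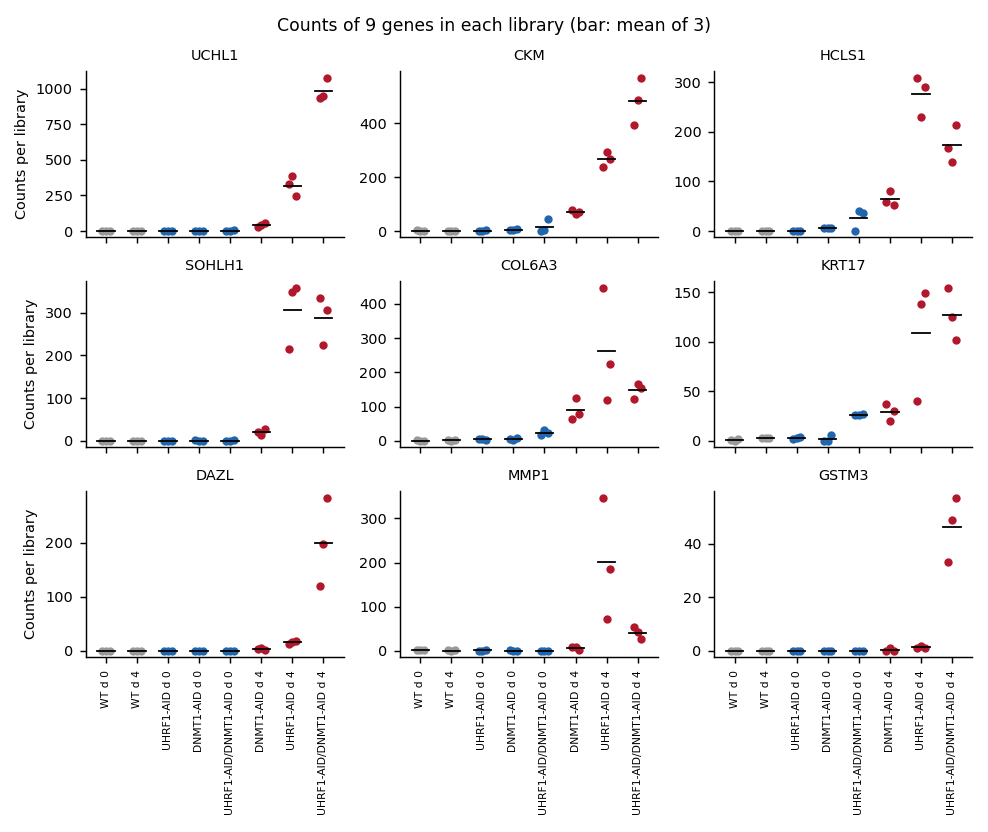
Counts per library (y axis, 1 panel per gene with its own scale) of UCHL1, CKM, HCLS1, SOHLH1, COL6A3, KRT17, DAZL, MMP1 and GSTM3 in the 8 groups of line and day, with a bar at the mean of 3 libraries. HCLS1, COL6A3 and MMP1 have their highest mean in UHRF1-AID day 4 cells, whereas UCHL1, CKM, DAZL and GSTM3 are highest in UHRF1-AID/DNMT1-AID day 4 cells, and GSTM3 stays at 2 counts or fewer elsewhere.

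Of 9 functional lists, that of germ cell and meiosis genes had the most genes in the group. Of 111 autosomal genes on that list, 71 were silent in WT and 12 were switched on (10.8% of the list), namely SOHLH1, MAEL, DPPA5, TEX101, DAZL, DPPA2, CTCFL, TDRD1, SYCP3, LIN28B, FKBP6 and MEI4. All 12 were called higher after UHRF1 loss, 6 after DNMT1 loss, and 6 were higher in UHRF1-AID than in DNMT1-AID cells. The shares of the whole group were 95.9%, 45.1% and 64.1%, so these counts are not particular to germline genes. MAEL, a piRNA pathway protein that protects germ cells from transposons, had 361, 302 and 379 counts in UHRF1-AID/DNMT1-AID, 45, 117 and 59 in UHRF1-AID and 13, 18 and 17 in DNMT1-AID cells. DPPA5, a KH-domain protein of pluripotent and germ cells, had 68, 66 and 65, then 14, 24 and 14, and 0 in every DNMT1-AID library. TEX101, a surface protein of spermatocytes, had 103, 85 and 102, then 23, 21 and 26, and 3, 2 and 1. TEX101 was at 1, 2 and 2 counts in DNMT1-AID day 0 libraries, and its DNMT1-AID values overlapped between days (log2 fold change 0.52, standard error 0.97). CTCFL, the testis paralog of CTCF, was higher in both lines, with 95, 115 and 101 counts in UHRF1-AID and 21, 30 and 28 in DNMT1-AID cells. Over the 49 tested genes of the list, 23 were called higher and 4 lower in UHRF1-AID cells, and 13 and 2 in DNMT1-AID cells. Of all genes tested, 13.1% were called higher and 9.78% lower in UHRF1-AID cells, and 8.54% and 6.19% in DNMT1-AID cells. The summed level of 6 germ cell markers was 15.5 to 30.8 CPM in the double depletion and 5.42 to 11.9 CPM in the other groups. Most of the rise lay in DAZL and SYCP3, which are themselves in the group. The defining marker DDX4 was also highest in the double depletion but low, at 6, 8 and 21 counts. Its mean was 0.726 CPM there and at most 0.146 CPM in the other groups.

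Leukocyte genes formed a smaller set. Of the 124 listed autosomal genes 6 belonged to it, among them CD3D, TYROBP, HCLS1, ZAP70 and CD38. All 6 were called higher after UHRF1 loss, near the share of the whole group, and all 6 were higher in UHRF1-AID than in DNMT1-AID cells. After DNMT1 loss 5 of the 6 were called higher, and these are the genes named here. Among the 67 tested genes of the list, 45 were called higher and 1 lower after UHRF1 loss, 28 and 0 after DNMT1 loss, and 15 and 2 in the direct comparison. CD3D (ENSG00000167286, chr11:118338954-118342744), a subunit of the T cell receptor complex, had 0 counts in every WT and day 0 library, 22, 21 and 12 in DNMT1-AID, 112, 121 and 107 in UHRF1-AID cells and 101, 96 and 87 in the double depletion. From day 0 to day 4 it rose at least 39.1-fold in the UHRF1-AID line (adjusted p = 1.17e-05, edgeR) and at least 7.51-fold in the DNMT1-AID line. TYROBP, a signalling adaptor of myeloid and natural killer cells, had 10, 10 and 7, then 37, 99 and 78, and 53, 51 and 36 counts in the same order. The defining leukocyte markers were near 0, with PTPRC at most 0.491 CPM and CD3E at most 0.0644 CPM in any group mean. The summed level of the 6 leukocyte markers was 3.96 to 7.04 CPM in UHRF1-AID cells at day 4 and 4.59 to 6.45 CPM in the double depletion, with TYROBP, itself in the group, as the largest part. It was 0.974 to 1.25 CPM in DNMT1-AID cells at day 4 and at most 0.684 CPM in any WT or day 0 library, and the part of other cell types in these values was not tested.

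Genes often methylated in colorectal cancer gave 8 of 106 listed autosomal genes (7.55%), UCHL1, DKK4, UNC5C, CDO1, TFPI2, SFRP1, GATA4 and GATA5. All 8 were called higher after UHRF1 loss, near the share of the whole group, 3 after DNMT1 loss (UCHL1, DKK4 and UNC5C), and 6 were higher in UHRF1-AID than in DNMT1-AID cells. After DNMT1 loss the call of UNC5C was lost in 6 of the alternative settings. That of DKK4 was lost without DNMT1-AID day 4 replicate 1. Of the 60 tested genes of the list, 24 were called higher and 5 lower after UHRF1 loss, 9 and 2 after DNMT1 loss, and 14 and 3 in the direct comparison. UNC5C, a netrin receptor, had 337, 257 and 241 counts in UHRF1-AID/DNMT1-AID, 95, 102 and 129 in UHRF1-AID and 1, 8 and 3 in DNMT1-AID cells, and 0 in all WT and day 0 libraries. Its UHRF1-AID level was at least 37.2-fold above day 0 and 4.36 log2 units above DNMT1-AID cells (standard error 0.46, adjusted p = 0.000667, edgeR). SFRP1, a secreted WNT inhibitor like DKK4, had 72, 37 and 68, then 49, 24 and 34, and 0, 1 and 3 counts. CDO1, cysteine dioxygenase, had 62, 54 and 95 in UHRF1-AID/DNMT1-AID cells but 8, 11 and 6 in UHRF1-AID and 5, 1 and 1 in DNMT1-AID cells, which overlapped once scaled for depth. DKK4 had 598, 243 and 964 counts in UHRF1-AID and 40, 5 and 20 in DNMT1-AID cells, with a spread of several times among the replicates of both.

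Homeobox and developmental transcription factors numbered 9 of 193 listed genes, HOXD9, FOXL2, CDX1, NKX2-5, GATA4, BARX1, TLX1, TBX4 and GATA5. All 9 were called higher after UHRF1 loss, near the share of the whole group, 2 after DNMT1 loss (NKX2-5 and TLX1) and 5 were higher in UHRF1-AID than in DNMT1-AID cells. Over the 118 tested genes of the list, 24 were called higher and 14 lower after UHRF1 loss, 10 and 2 after DNMT1 loss, and 13 and 4 in the direct comparison. FOXL2, a factor of ovarian granulosa cells, had 32, 18 and 46 counts in UHRF1-AID, 2, 0 and 2 in DNMT1-AID cells and 53, 50 and 56 in the double depletion. GATA5, a factor of heart and gut, had 15, 15 and 10, then 2, 2 and 0, and 48, 52 and 48. NKX2-5, a cardiac homeobox factor, had 18, 16 and 2 in UHRF1-AID and 7, 5 and 7 in DNMT1-AID cells, which overlapped, and 26 counts in replicate 3 of UHRF1-AID/DNMT1-AID day 0. BARX1, a homeobox factor of stomach mesenchyme, was low in UHRF1-AID cells, with 6, 6 and 1 counts against 36, 37 and 31. None of these factors exceeded 61 counts in any UHRF1-AID/DNMT1-AID day 4 library.

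Extracellular matrix and mesenchymal genes contributed 6 of 134, EFEMP1, COL6A3, COL14A1, MMP1, MMP13 and IGFBP4. All 6 were called higher after UHRF1 loss, near the share of the whole group, 3 after DNMT1 loss, and 5, all but COL6A3, in the direct comparison. The list has 79 tested genes, of which 29 were called higher and 7 lower after UHRF1 loss, 17 and 4 after DNMT1 loss, and 18 and 4 in the direct comparison. MMP13, a collagenase like MMP1, had 64, 92 and 90 counts in UHRF1-AID, 33, 19 and 15 in DNMT1-AID cells and 117, 107 and 85 in the double depletion. IGFBP4, a binding protein of insulin-like growth factors, had 73, 79 and 94, then 2, 2 and 11, and 89, 56 and 76. The summed level of 5 fibroblast markers was 16.1 to 20.4 CPM in UHRF1-AID/DNMT1-AID, 9.32 to 13.8 CPM in DNMT1-AID and 4.36 to 11 CPM in UHRF1-AID cells at day 4, and 1.4 to 8.88 CPM in WT and day 0 libraries, nearly all of it COL1A1. COL1A2, COL3A1, DCN and LUM had group means of at most 0.397 CPM. UCHL1 and NPTX2, a neuronal pentraxin with 14, 26 and 16 counts in UHRF1-AID and 0, 1 and 1 in DNMT1-AID cells, were 2 of 163 neuronal genes. TNFRSF14, a lymphocyte costimulatory receptor, was the only 1 of 108 cytokine and receptor genes, with 14, 41 and 61 counts in UHRF1-AID and 7, 2 and 4 in DNMT1-AID cells. GBP4, an interferon-inducible GTPase with 26, 65 and 36 against 7, 10 and 2 counts, was the only 1 of 67 interferon-stimulated genes, although 60 of the 63 tested genes of that list were called higher in UHRF1-AID and 58 in DNMT1-AID cells. Protocadherin and cadherin genes gave 0 of 86. In all, 42 of the genes were on any of the lists and 153 on none.

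By annotation 164 of the 195 genes (84.1%) were protein-coding, which is close to the 85% over all autosomal genes tested and far from the 15% over autosomal genes silent in WT. Long noncoding RNAs numbered 23 (11.8%) and pseudogenes 6. AFAP1-AS1, antisense to AFAP1, had 231, 242 and 243 counts in UHRF1-AID/DNMT1-AID, 139, 129 and 235 in UHRF1-AID and 54, 71 and 65 in DNMT1-AID cells at day 4. LINC00958 had 167, 170 and 138, then 123, 135 and 135, and 21, 25 and 10. Both were called higher in both single lines and in the direct comparison, where the call of AFAP1-AS1 was lost without any 1 of the DNMT1-AID replicates. ENSG00000231476, on chromosome 7, had 50, 39 and 47, then 28, 18 and 20, and 0 in DNMT1-AID cells. Of the pseudogenes, the processed copies NOC2LP1, DNAJB3 and ELOBP2 had UHRF1-AID counts of 38, 40 and 53, of 10, 11 and 9, and of 2, 4 and 2, and the metallothionein copy MT1L 26, 10 and 45. Reads of MT1L, NOC2LP1 and ELOBP2 cannot be separated with certainty from their parent genes. ENSG00000280002 is unclassified (TEC), and ENSG00000248632 was not matched in GENCODE 44.

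The genes were spread over every autosome but chromosome 18, with 23 on chromosome 1, 22 on chromosome 19, 16 on chromosome 2 and 15 on chromosome 17. As a share of the genes tested they were 1.29% overall and highest on chromosomes 20 (2.73%), 4 (2.36%), 21 (2.03%) and 19 (2.02%). As a share of the genes silent in WT the highest were chromosomes 19 (1.24%), 20 (1.16%), 17 (0.794%) and 4 (0.753%), and chromosome 21, with 3 genes, stood at 0.462% against 0.506% overall. Another switched-on gene lay within 100 kb of 22 of the genes (11.3%), against 4.17% of the other autosomal genes tested and 2.75% of the other genes silent in WT. They form 11 pairs, among them KLK11 and KLK12, TFF3 and TFF2, DPPA5 and KHDC3L, and NNT with its antisense RNA NNT-AS1, which were named from the list of pairs. KLK11 and KLK12, serine proteases of the kallikrein cluster 1052 bases apart, had 74, 99 and 82 and 17, 21 and 27 counts in UHRF1-AID cells at day 4, and 59, 79 and 20 and 8, 13 and 2 in DNMT1-AID cells. TFF3, 30705 bases from TFF2, had 26, 34 and 54 in UHRF1-AID and 6, 2 and 4 in DNMT1-AID cells. KHDC3L, an oocyte protein 8381 bases from DPPA5, had 34, 39 and 41 in UHRF1-AID and 1, 4 and 0 in DNMT1-AID cells. In the TFF pair and the DPPA5 pair both partners were lower in every DNMT1-AID library than in any UHRF1-AID library, whereas KLK11 overlapped between the single lines. Exons of 60 genes overlapped those of another gene, 51 of them on the opposite strand only, and for 27 the partner was at 1 CPM or more in UHRF1-AID/DNMT1-AID day 4 cells. LXN lies opposite GFM1 (45.6 CPM in WT) and NSG1 opposite STX18 (25.3 CPM in WT), so some of their reads could belong to the partner if strand was not used, which was not tested.

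Before auxin, most of these genes were at or near 0 in the single lines. In UHRF1-AID day 0 libraries 180 of the 195 genes were at 3 counts or fewer in each library, 164 were so in DNMT1-AID libraries and 126 in those of UHRF1-AID/DNMT1-AID cells. Their summed level was 3.56 to 5.44 CPM in UHRF1-AID and 6.67 to 8.97 CPM in DNMT1-AID day 0 libraries, against 3.3 to 4.15 CPM in the WT day 0 libraries, which the choice of genes held low. DNMT1-AID libraries all lay above those of both others, while UHRF1-AID and WT overlapped. Between UHRF1-AID and DNMT1-AID at day 0, 0 genes were called higher and 0 lower by edgeR or DESeq2, where 0% of all genes were called higher and 0.00637% lower. With 158 of the genes at 3 counts or fewer in each of these 6 libraries, and 72 at 0 in all of them, few could have been called. At an unadjusted p under 0.05 there were 0 higher and 4 lower in UHRF1-AID cells, and replicates did not overlap for 1 gene higher and 9 lower (9.62% and 13.5% of all genes). Against UHRF1-AID day 0, UHRF1-AID/DNMT1-AID day 0 cells had 3 genes (1.54%) called higher and 0 lower, where 0.255% of all genes were called higher and 0.134% lower. At an unadjusted p under 0.05 the counts were 22 and 1, and DESeq2 called 0. Against DNMT1-AID day 0, 0 were called by edgeR, 14 were higher and 2 lower at an unadjusted p under 0.05, and DESeq2 called 2 higher, where edgeR called 0.0191% of all genes higher and 0.0318% lower. Without DNMT1-AID day 0 replicate 3 the last count rose from 0 to 7, and 3 genes were called lower in UHRF1-AID than in DNMT1-AID cells. Replicates did not overlap for 20 genes higher and 0 lower against UHRF1-AID (14.9% and 11.8% of all genes) and for 14 and 3 against DNMT1-AID (9.11% and 9.94%).

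The 3 genes called against UHRF1-AID day 0 were KRT17, PDCD1 and COL6A3. KRT17 (ENSG00000128422, chr17:41619441-41624842), a keratin of basal epithelium, had 26, 26 and 27 counts in UHRF1-AID/DNMT1-AID, 2, 3 and 4 in UHRF1-AID and 0, 0 and 6 in DNMT1-AID day 0 libraries. Its log2 fold change against UHRF1-AID was 2.96 (standard error 0.50, adjusted p = 0.0172, edgeR). COL6A3 had 17, 31 and 24 counts against 6, 6 and 2, with 2.18 (standard error 0.54, adjusted p = 0.0455, edgeR). PDCD1, the inhibitory receptor PD-1 of T cells, had 21, 3 and 22 counts against 0 in each UHRF1-AID library, at least 4.70-fold higher (adjusted p = 0.0433, edgeR). KRT17 was even across the 3 UHRF1-AID/DNMT1-AID libraries, while PDCD1 was low in replicate 2. The calls depended on single libraries, since 0 remained without UHRF1-AID replicate 3 or without UHRF1-AID/DNMT1-AID replicate 3, and 6 were called without UHRF1-AID replicate 2. AFAP1-AS1 had the highest sum at day 0, with 14, 27 and 90 counts in UHRF1-AID/DNMT1-AID, 0, 2 and 6 in DNMT1-AID and 0 in UHRF1-AID libraries. Replicate 3 was the highest of the UHRF1-AID/DNMT1-AID day 0 libraries for 89 of the 131 genes with a count there, among them CKM (0, 4 and 46) and DKK4 (1, 2 and 33), but not HCLS1 (1, 41 and 37).

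The limits of the choice were crossed gradually. In WT 90 genes had 0 counts in all 6 libraries, 24 had 3 in at least 1, and 15 further genes missed the group only by 4 counts in a WT library. At the other limit 47 genes had between 20 and 25 counts in their lowest UHRF1-AID/DNMT1-AID day 4 library, and 55 genes outside had 15 to 19. Just inside lay DMRTB1, with 20, 25 and 42 counts, EFEMP1, with 29, 20 and 23, and ENSG00000280002, with 34, 20 and 31. Just outside lay DCAF4L2, with 19, 28 and 53, MAP9, with 19, 20 and 21, and RNF150, with 19, 20 and 31. The values inside and outside are thus hardly apart. The 15 genes that missed the WT limit included PTPN7, a lymphocyte phosphatase with 329, 378 and 408 counts in UHRF1-AID/DNMT1-AID day 4 libraries, and LCK, a T cell kinase with 65, 53 and 63. On chromosome X 51 genes met the same limits.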

How the data were processed

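Poly(A) RNA was sequenced in pairs from 24 libraries. Per the labels and the study's methods, the authors trimmed reads, aligned them with STAR to hg38 and counted them per gene with featureCounts, and they deposited raw counts. Strand setting and the handling of multiply aligned reads are not given in the sources used here. ERCC rows entered neither library sizes nor fits.

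The genes described, the functional lists and the tests were chosen with earlier results of these data known. Counts were fitted with edgeR 4.0.16 in R 4.3.3 (quasi-likelihood, robust, TMM scaling), 1 fit per comparison over all 15699 genes that passed filterByExpr across the 8 groups, with Benjamini-Hochberg adjustment. All 195 genes passed that filter, through their counts in UHRF1-AID/DNMT1-AID day 4 cells. DESeq2 1.42.0 and other settings were alternatives. The fits were tested on simulated data. RPKM is TMM-scaled CPM per kilobase of exon. Folds against a group at 0 used a floor of 3 counts per library, and ratios over 1 to 3 counts have exact 95% intervals. Depth of 15824804 to 25073821 counts makes 3 counts the lowest level read as detectable in a library.

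Named genes were those with the 8 highest levels per length in UHRF1-AID/DNMT1-AID day 4 cells, the 5 smallest p without overlap in each comparison and direction, up to 4 per list and noncoding class by level, the 3 nearest to each side of the count limit and the 5 highest at day 0. Others (TEX101, CTCFL, CD38, CDO1, SFRP1, BARX1, ZFP42, SMIM5, NKX2-5, the genes not called, the neighbours, the genes above the double depletion and the near misses) were chosen after their values were seen, and 1 gene is not reported by name here. Replicate numbers of UHRF1-AID day 0 and day 4 libraries deviated together over all genes tested (correlations of 0.2279, 0.1433 and 0.1217), and each library correlated best with its own number, so they were treated as paired in the alternative with a replicate block. The numbers are not tied to named clones in the labels. No replicates were close enough to be 1 library deposited more than once (chi-square per degree of freedom 3.709 to 64.272). Promoter windows came from GENCODE 44 transcript starts on hg38 and printed sequences from RefSeq on GRCh38.p14, whose promoter table matched 128 of the 195 genes.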

Additional observations from a re-analysis of the deposited data

Results flagged for a closer look

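The rise from day 0 to day 4 was larger in UHRF1-AID than in DNMT1-AID cells for HCLS1, by 5.76 on the log2 scale, for BOK-AS1, by 5.43, and for CKM, by 3.16, each by an interaction term in edgeR with an adjusted p under 0.05. HCLS1 was called in every alternative fit, BOK-AS1 and CKM were not. Each interaction also takes in a lower UHRF1-AID level at day 0, with log2 changes against DNMT1-AID of -4.01, -3.23 and -1.57 for HCLS1, BOK-AS1 and CKM. The libraries of DNMT1-AID cells at day 4 lie in another alignment folder than the rest of that fit, and folder and line cannot be told apart at day 4.

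Counts of ERCC spike-in sequences, which the comparisons did not use, were present in 9 libraries, those of WT, DNMT1-AID and UHRF1-AID/DNMT1-AID cells at day 4, at 0.891% to 1.65% of their counts, and absent from the other 15.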

How the results depend on the processing

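With the count limits of the choice changed, the group held 90 genes when WT libraries had to be at 0, 297 when WT could reach 10 counts, 389 at 10 or more counts in UHRF1-AID/DNMT1-AID day 4 libraries and 64 at 50 or more. Without 1 library it held 197 to 222 genes. The 187 genes higher in UHRF1-AID cells at day 4 than at day 0 ranged from 177 to 182 without 1 library. They were 138 of 138 tested when the filter on low counts was set within the libraries compared. With so few counts at day 0, these genes pass that filter mostly through their day 4 counts. The result of that setting was thus nearly fixed in advance and adds no support.

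The count of 88 for DNMT1-AID day 4 against day 0 became 49 at an adjusted p under 0.01 and 60 to 88 without 1 library. With the filter within the libraries compared it was 37 of 37 tested. Fewer genes are tested there, and they too pass mostly through their day 4 counts, so that count adds no support. The 125 genes higher in UHRF1-AID than in DNMT1-AID cells became 69 at an adjusted p under 0.01 and 78 to 129 without 1 library. The count lower in that comparison became 1 with all 24 libraries in 1 fit and was 0 to 1 without 1 library, 1 being the value without UHRF1-AID replicate 2. Of the named genes called, 11 of 29 in DNMT1-AID cells and 15 of 40 in the direct comparison lost the call in some setting. In UHRF1-AID cells 4 of 49 did.

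The 3 genes of the interaction became 1 at an adjusted p under 0.01, 6 with RLE scaling, 11 with all 24 libraries in 1 fit, 26 without a filter and 27 by DESeq2. Without 1 library the count was 1 to 9. It was 9 without DNMT1-AID day 0 replicate 3, 2 without DNMT1-AID day 0 replicate 2 or UHRF1-AID day 4 replicate 1, and 1 without any of the other libraries of that fit. The 3 genes higher in UHRF1-AID/DNMT1-AID than in UHRF1-AID cells at day 0 became 0 at an adjusted p under 0.01, 0 by DESeq2, 6 with all 24 libraries and 16 without a filter. Without 1 library they numbered 0 to 6, with 1 left without UHRF1-AID replicate 1 or UHRF1-AID/DNMT1-AID replicate 2. Against DNMT1-AID day 0 the count of 0 became 3 with all 24 libraries, 3 without a filter, 2 by DESeq2 and 0 to 7 without 1 library. The count lower in UHRF1-AID than in DNMT1-AID cells at day 0 was 0 to 3 without 1 library. That comparison had 0 of the genes left under the filter within the libraries compared and was not run there. The cause of these changes was not tested.

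With a replicate block the counts were 185 in UHRF1-AID cells, where the numbers pair the libraries, 78 in DNMT1-AID cells, 99 in the direct comparison, 2 in the interaction, 8 for UHRF1-AID/DNMT1-AID against UHRF1-AID at day 0, and 0 for both other day 0 comparisons. In the latter comparisons libraries share only a number.

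The share of CpG-rich windows differed by -27.9 percentage points from all autosomal genes tested and by 37.5 from the other genes silent in WT. Depth limits what can be read at day 0, where most of these genes have 0 to 3 counts and a lower level could not be detected.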
